A study of Mus musculus with 4 samples.

Results

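Myeloid growth factor receptors are the 8 genes Csf3r, Csf1r, Csf2ra, Il3ra, Csf2rb, Csf2rb2, Kit and Flt3, examined here in ATAC-seq peak lists. ATAC-seq uses the Tn5 transposase to cut open chromatin, and a peak marks a stretch where the cut fragments pile up above the local background. The members were every peak overlapping a receptor gene body extended by 10 kb on either side. Peaks that shared at least 1 bp across libraries were merged, which gave 26 regions out of 45299 in the whole series, and each of the 8 genes had at least 1. The groups were Sphk2 KO (2 libraries), labelled as a knockout of the gene for the lipid kinase sphingosine kinase 2, and WT (2 libraries). Mice of both genotypes had been injected with EL4, a lymphoma line of mouse T cells. Myeloid-derived suppressor cells, immature myeloid cells that restrain T cells, were sorted as Gr1+CD11b+ from ascitic fluid at day 14. Strain, age, sex and the design of the deletion are not given in the sources used here. The labels do not tie replicates to animals, so tests measured the spread between libraries.

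Growth factor receptors set the survival, division and fate of myeloid cells. Csf3r binds G-CSF and drives neutrophil production, while Csf1r binds M-CSF and IL-34 and drives the monocyte and macrophage lineage. Csf2ra and Il3ra bind GM-CSF and IL-3 with specificity and signal through the common beta chain Csf2rb. The mouse also has Csf2rb2, a near-identical copy of that beta chain used by IL-3. Kit and Flt3 are receptor tyrosine kinases of stem and progenitor cells, and Flt3 is also used by dendritic cells. GM-CSF and G-CSF are known tumour-derived signals that expand suppressor myeloid cells.

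Promoters of 6 receptors were in the RefSeq table (GRCm38.p6), which gives 250 bases before to 50 after a start site. The 4 below are shown for the contrast in calls at their start sites. A peak covered the Csf2ra start in all 4 libraries, and each of the other 3 starts in 2. Capitals mark matches, on either strand, to the PU.1 core GAGGAA or the C/EBP pattern TTNNGNAA, the letters recognised by factors of the myeloid lineage.
Csf2ra, chr19:61228369-61228668, minus strand: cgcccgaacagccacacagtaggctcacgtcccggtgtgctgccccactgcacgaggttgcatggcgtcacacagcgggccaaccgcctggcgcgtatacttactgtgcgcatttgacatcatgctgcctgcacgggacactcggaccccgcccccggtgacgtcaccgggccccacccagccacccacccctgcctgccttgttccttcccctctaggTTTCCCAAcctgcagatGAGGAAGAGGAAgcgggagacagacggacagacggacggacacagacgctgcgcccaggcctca
Csf3r, chr4:126024409-126024708, plus strand: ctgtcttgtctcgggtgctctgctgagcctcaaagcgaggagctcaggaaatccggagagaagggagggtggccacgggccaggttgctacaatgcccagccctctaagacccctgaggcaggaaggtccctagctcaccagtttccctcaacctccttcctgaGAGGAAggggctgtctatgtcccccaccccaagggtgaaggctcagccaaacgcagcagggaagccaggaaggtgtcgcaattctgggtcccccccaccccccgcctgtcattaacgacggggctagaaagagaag
Kit, chr5:75574737-75575036, plus strand: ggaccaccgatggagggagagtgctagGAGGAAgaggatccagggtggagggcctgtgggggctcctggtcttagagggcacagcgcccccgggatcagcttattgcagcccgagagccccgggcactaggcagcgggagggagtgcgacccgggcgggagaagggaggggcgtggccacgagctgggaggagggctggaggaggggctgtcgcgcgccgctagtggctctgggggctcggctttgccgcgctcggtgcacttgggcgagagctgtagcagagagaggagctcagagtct
Flt3, chr5:147400440-147400739, minus strand: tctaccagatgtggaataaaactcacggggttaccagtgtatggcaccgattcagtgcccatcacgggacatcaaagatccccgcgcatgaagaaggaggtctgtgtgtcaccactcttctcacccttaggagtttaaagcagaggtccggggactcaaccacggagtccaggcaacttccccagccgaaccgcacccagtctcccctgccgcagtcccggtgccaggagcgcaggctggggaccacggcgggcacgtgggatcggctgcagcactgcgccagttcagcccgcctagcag

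Csf2ra held the PU.1 letters at adjoining positions, beginning at -14 and -8 from its start site, and a C/EBP match beginning at -31. Csf3r held the PU.1 letters at -86 and Kit at -223, and Flt3 had no match to either. Csf2rb2 had 2 matches to each pattern, one pair of which overlapped, and Il3ra had 1 C/EBP match. In all, 4 of 6 receptor promoters held the PU.1 letters, against 28.3% of the 32851 promoters in the table, and 3 of 6 held the C/EBP pattern, against 40.7%. The RUNX letters TGTGGT and the GATA letters AGATAA were in 0 of 6, against 16.8% and 11.2% of all promoters. These are letter matches and describe the sequence only.

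The libraries differed in depth in the same direction as genotype. Retained fragments numbered 25877428 and 27686223 in Sphk2 KO replicates 1 and 2, against 33859480 and 34443062 in WT replicates 1 and 2. The lists held 20759 and 27446 peaks in Sphk2 KO and 31507 and 31843 in WT. At Sphk2 itself, a region inside the gene was called only in the Sphk2 KO libraries, at −log10 q 26.4 and 42.2, and one at its upper-coordinate end in all 4 libraries. The deleted part of Sphk2 is not named in the labels, so this does not check the genotype. No receptor gene lies on chromosome 7, which carries Sphk2. A gene-end peak, one lying no more than 1 kb from either end of a gene, was called at 42.5% and 47.2% of the 21883 protein-coding genes in Sphk2 KO and at 47.9% and 48.8% in WT. Of 10 granulocyte markers, 7 and 8 had one in Sphk2 KO and 8 in each WT library, including Itgam, which encodes CD11b. Ly6g, a gene behind the Gr1 epitope, had none in any library. Of 8 T cell markers, which EL4 cells also carry, 2 had such a peak in each Sphk2 KO library, and 2 and 4 in WT replicates 1 and 2. No B cell, NK cell, or mast cell and basophil marker had one in any library.

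The receptor windows held fewer called peaks in Sphk2 KO, as did the lists as a whole. They held 13 and 18 peaks in Sphk2 KO replicates 1 and 2 and 19 and 23 in WT replicates 1 and 2, or 15.5 ± 3.5 against 21.0 ± 2.8 (mean ± SD, n = 2 each). The groups did not overlap, and the difference of -5.5 had a two-sided exact permutation p = 0.333, the smallest that 2 libraries against 2 allow. The receptor peaks covered 7936 and 12949 bp in Sphk2 KO and 11618 and 14212 bp in WT, where the groups overlapped (exact permutation p = 0.667). Mean peak widths were 610 and 719 bp in Sphk2 KO and 611 and 618 bp in WT. Relative to list length the groups overlapped. The windows held 6.26 and 6.56 peaks per 10000 listed in Sphk2 KO, against 6.03 and 7.22 in WT. When every list was cut to its 20759 strongest peaks, they held 13 and 16 in Sphk2 KO and 14 in each WT library, a difference of 0.5 in the other direction (exact permutation p = 1). At least 1 window peak was called at 6 and 8 of 8 receptors in Sphk2 KO and at 8 in each WT library, against 56.6% and 62.4% of all protein-coding genes in Sphk2 KO and 64.5% and 65.2% in WT. A gene-end peak was called at 5 and 7 receptors in Sphk2 KO and at 8 and 7 in WT.

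**Figure D1:**
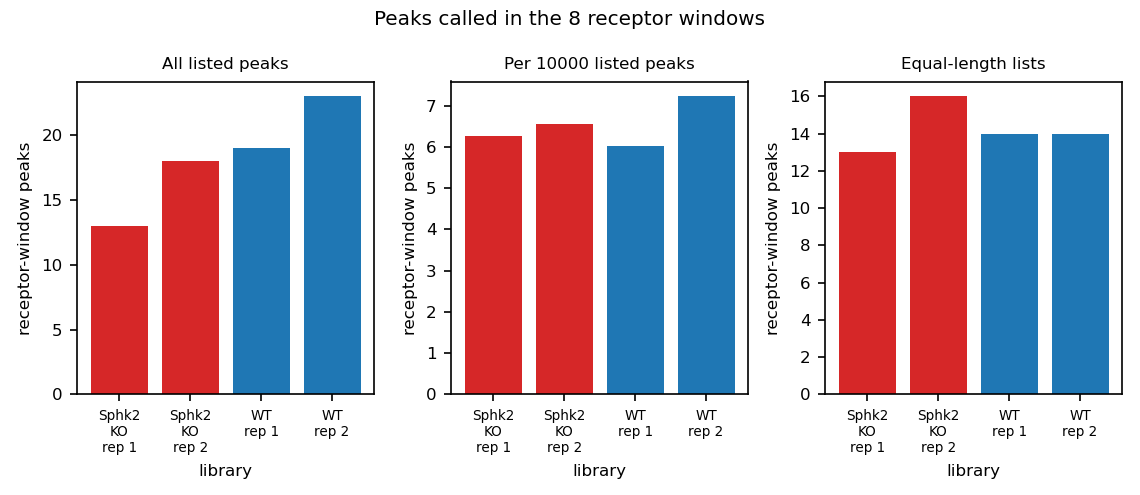
Peaks called in the 8 receptor windows in each library (horizontal axis), with Sphk2 KO in red and WT in blue. The left panel gives all listed peaks (13 and 18 in Sphk2 KO, 19 and 23 in WT), the middle panel peaks per 10000 listed, and the right panel peaks when each list is cut to its 20759 strongest, where the bars of the groups overlap. Bars are single libraries with no error bar.

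Of the 26 regions, 10 (38.5%) were called in all 4 libraries, against a background of 37.5% of all regions. WT-only regions, with a peak in each WT library and none in Sphk2 KO, numbered 3 (11.5%), at Csf3r, Csf2rb and Flt3, against 5.43% of all regions. No region had the reverse pattern (Sphk2 KO-only), against 0.605% of all regions, and of the 11 receptor regions called in both Sphk2 KO libraries 0 lacked both WT calls, against 1.53% of all such regions. Among the 17 receptor regions called in both WT libraries the WT-only share was 17.6%, against 10.7% of all such regions. Counts of 3 and 0 are too small to set the receptors apart, and no test was made because regions are not replicates. A further 3 regions (11.5%), at Kit and Flt3, lacked a peak in Sphk2 KO replicate 1 alone, the shallowest library, against 7.19% of all regions. They were 23.1% of the 13 receptor regions called in the other 3 libraries, against 16.1% of all such regions. The remaining 10 regions had other combinations, and 4 of them (15.4% of the 26) were called in 1 library only, against 41.9% of all regions.

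**Figure D2:**
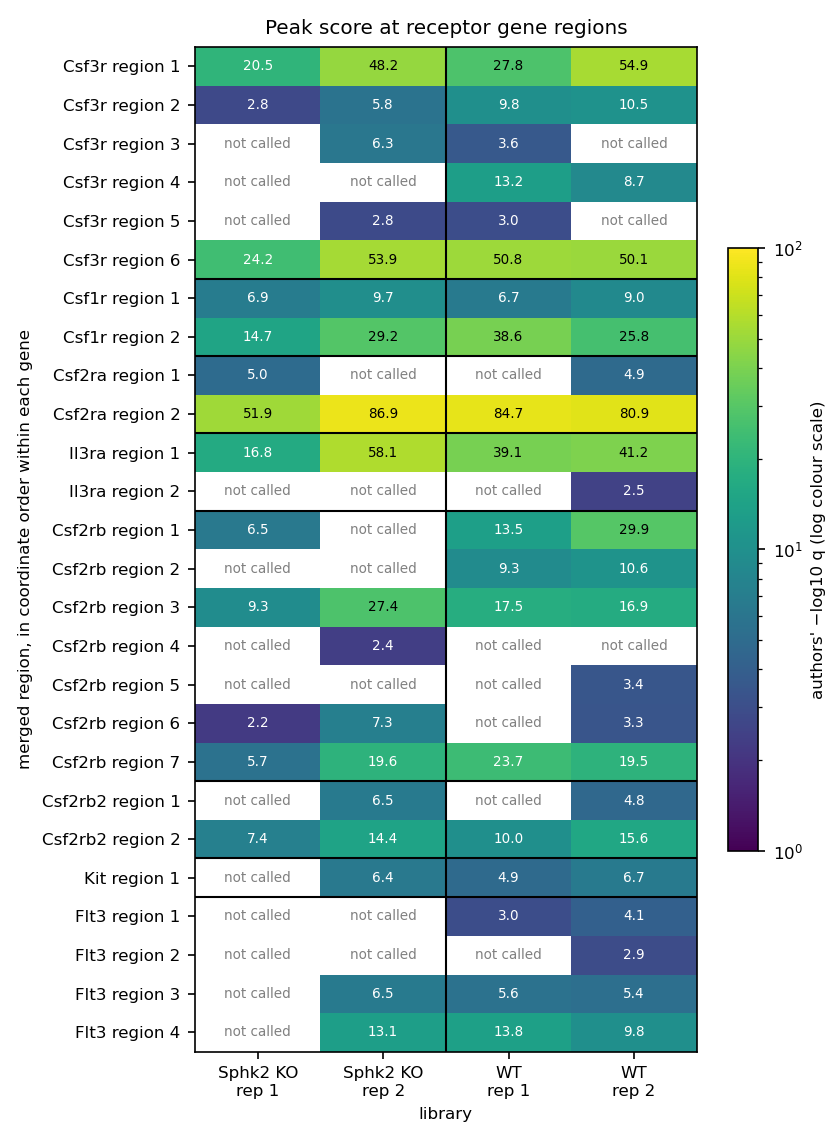
The authors' −log10 q of the strongest peak in each of the 26 receptor regions (rows, numbered in coordinate order within a gene) in each library (columns). Colour follows a log scale and white cells mark regions with no called peak. Csf2ra region 2 is the strongest row at 51.9 to 86.9, and both Sphk2 KO columns are white at Csf3r region 4, Csf2rb region 2 and Flt3 region 1.

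Csf3r, the G-CSF receptor gene at chr4:126023441-126044975, had 6 regions, and 3 of these had a peak in every library. The stronger of the upstream pair, chr4:126017552-126018474 (region 1), was centred at -6774 bp from the start site and overlaps the long non-coding RNA gene Gm32908. Its −log10 q was 20.5 and 48.2 in Sphk2 KO and 27.8 and 54.9 in WT, with fold enrichments over local background of 7.62 and 9.22 in Sphk2 KO and 7.68 and 10.2 in WT. Its summit fell on the same base in all 4 libraries, and the groups overlapped. The weaker region 2, chr4:126018767-126019260, centred at -5574 bp, also overlaps Gm32908. It had −log10 q of 2.77 and 5.81 in Sphk2 KO and 9.85 and 10.5 in WT. Both Sphk2 KO values lay below both WT values there, and so did the fold enrichments (3.15 and 3.26 against 4.49 and 4.18).

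The Csf3r start site listed first in the promoter table was only weakly called. Region 3, chr4:126024435-126025076, covers that start site, printed above, and overlaps Gm32908. Region 3 was centred 57 bp past that start and 1275 bp past the lower-coordinate end of Csf3r. It had a −log10 q of 6.26 in Sphk2 KO replicate 2 and 3.61 in WT replicate 1, and was called in neither of the other two libraries. The calls there did not follow genotype. Region 4 lay inside the gene at chr4:126030704-126031006, centred 6237 bp past the start site, and was WT-only. It had −log10 q of 13.2 and 8.69 in WT, which were ranks 15000.5 of 31507 and 19364.5 of 31843 peaks, and the nearest Sphk2 KO peaks were 11740 and 4353 bp away in replicates 1 and 2. Region 5, 10823 bp past the start, was called weakly in Sphk2 KO replicate 2 (2.80) and WT replicate 1 (2.98). Region 6, chr4:126046720-126047710, lies outside Csf3r and covers the lower-coordinate end of Mrps15, a mitochondrial ribosomal protein gene, and had −log10 q of 24.2 and 53.9 in Sphk2 KO and 50.8 and 50.1 in WT. The 3 genes most like Csf3r by the strongest window peak, over 4 libraries and 15207 genes, were Foxd2, Mrps15 and Ankrd13d. The summed percentile differences were 2.83, 3.13 and 3.36, and Mrps15 shares region 6 with Csf3r.

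Csf1r, the M-CSF receptor gene at chr18:61105572-61131139, had 2 regions, and all 4 libraries called both. Region 1, chr18:61105534-61106138, lies at the lower-coordinate end of the gene. It had −log10 q of 6.93 and 9.74 in Sphk2 KO and 6.70 and 8.96 in WT, so the raw scores overlapped. Ranked within each library among shared regions, both Sphk2 KO values lay above both WT values, as given below. Region 2, chr18:61107896-61109033, centred 3024 bp inside the gene, was stronger, at 14.7 and 29.2 in Sphk2 KO and 38.6 and 25.8 in WT, again with overlap. Csf1r is known for an enhancer inside the gene, and region 2 was not matched to it here. No peak in any library lay elsewhere in the Csf1r window.

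The GM-CSF receptor alpha chain gene Csf2ra, at chr19:61217191-61228461, carried the strongest receptor region. Region 2, chr19:61226844-61228800, covers its start site and had −log10 q of 51.9 and 86.9 in Sphk2 KO and 84.7 and 80.9 in WT. At 1957 bp it was also the widest receptor region. It ranked 3469 and 4409 in the Sphk2 KO lists and 3015 and 3869 in the WT lists. Its fold enrichment was moderate, at 5.24 and 4.98 in Sphk2 KO and 5.74 and 5.05 in WT. Neither measure separated the genotypes. Region 1 nearby was called in Sphk2 KO replicate 1 (5.02) and WT replicate 2 (4.94) only.

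Il3ra, the IL-3 receptor alpha chain gene at chr14:14345912-14355493, had 1 region in all 4 libraries, which reaches over its start site. This region, chr14:14345512-14346588, had −log10 q of 16.8 and 58.1 in Sphk2 KO and 39.1 and 41.2 in WT. The Sphk2 KO libraries lay on either side of both WT libraries. The other Il3ra region was called in WT replicate 2 alone (2.50).

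Csf2rb, the common beta chain gene at chr15:78325800-78351001, had 7 regions, the most of any receptor. Region 3, chr15:78325685-78326572, at its lower-coordinate end, had −log10 q of 9.31 and 27.4 in Sphk2 KO and 17.5 and 16.9 in WT, with overlap. Region 7, chr15:78355132-78355819, beyond the other end, had 5.72 and 19.6 in Sphk2 KO and 23.7 and 19.5 in WT, so the groups overlapped. Region 2, chr15:78321897-78322363, was the WT-only region of this gene. It was centred at -3811 bp from the lower-coordinate end and had −log10 q of 9.27 and 10.6 in WT, at ranks 17670 and 17867. The nearest Sphk2 KO peaks were 783 bp away in replicate 1 and 3322 bp away in replicate 2.

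The neighbouring region 1, chr15:78320911-78321119, was the narrowest receptor region at 209 bp. It had 6.49 in Sphk2 KO replicate 1 and 13.5 and 29.9 in WT, and no call in Sphk2 KO replicate 2, although that is the deeper Sphk2 KO library. Region 6, chr15:78351571-78352512, went the other way, with 2.19 and 7.32 in Sphk2 KO, 3.35 in WT replicate 2 and no call in WT replicate 1. With lists of equal length it became Sphk2 KO-only. Regions 4 and 5 were called in 1 library each, Sphk2 KO replicate 2 (2.35) and WT replicate 2 (3.43).

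Csf2rb2, the IL-3-specific beta chain copy at chr15:78282507-78305721, had a region over its start site in all 4 libraries. This region, chr15:78304950-78306136, had −log10 q of 7.39 and 14.4 in Sphk2 KO and 10.0 and 15.6 in WT, and the groups overlapped. A second region past the far end of the gene was called in replicate 2 of each genotype, at 6.52 in Sphk2 KO and 4.76 in WT. Csf2rb and Csf2rb2 are near-identical in sequence, and the handling of fragments that fit both is not stated, so scores inside these genes are uncertain.

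Kit and Flt3, the progenitor receptor tyrosine kinases, were the receptors with no peak at all in Sphk2 KO replicate 1. The single Kit region, chr5:75574745-75575918, at the gene start, was weak throughout, at 6.44 in Sphk2 KO replicate 2 and 4.94 and 6.67 in WT. The strongest Flt3 region, chr5:147400195-147400703, covers its start site and overlaps the long non-coding RNA gene Gm26597. It had 13.1 in Sphk2 KO replicate 2 and 13.8 and 9.84 in WT. A region 11316 bp past the Flt3 start had 6.52 in Sphk2 KO replicate 2 and 5.65 and 5.42 in WT. By −log10 q, Sphk2 KO replicate 2 lay between the WT values at 2 of these 3 regions and above both at the third. The lists differed in scale, with a median −log10 q of 19.1 in that library and 12.0 and 13.8 in WT. Its rank, as a percentage of list length (low is strong), was weaker than both WT ranks at all 3. It was 74.4 at Kit (69.9 and 67.2 in WT), 73.7 at 11316 bp past the Flt3 start (66.9 and 71.8) and 58.7 at that start (46.6 and 57.8). The lists also differed in length.

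The WT-only region of Flt3, chr5:147341034-147341538, lay 59235 bp past the start site inside the gene and was weak, at 2.98 and 4.11 in WT. It fell away when a −log10 q of at least 5 was required, and with lists of equal length. Its ranks were 26204.5 of 31507 and 24833 of 31843. Flt3 region 2 was called in WT replicate 2 alone (2.90).

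Gene-end calls at progenitor, monocyte and macrophage markers were fewer in Sphk2 KO than in WT, and no test was made. Over all genes the gap was narrower (42.5% and 47.2% in Sphk2 KO, 47.9% and 48.8% in WT), but these marker lists held only 5 to 7 genes. The Sphk2 KO libraries were also shallower, and the part of depth in the marker calls was not tested. Of 5 stem and progenitor markers, 0 and 1 had one in Sphk2 KO and 2 and 3 in WT, and of 6 dendritic markers, 2 had one in every library. Of 7 monocyte markers, 1 and 3 had one in Sphk2 KO and 4 and 5 in WT, and of 6 macrophage markers, 1 in each Sphk2 KO library and 3 in each WT library. Beside Adgre1 and Mertk, the WT macrophage calls were at C1qb in replicate 1 and C1qc in replicate 2. The windows of C1qa, C1qb and C1qc had the same best scores, 2.38 in WT replicate 1 and 6.37 in WT replicate 2. Fewer cells of a type and less accessibility per cell cannot be told apart in sorted bulk samples, and the part of these markers in the Kit, Flt3 and Csf1r calls was not tested. Both regions of Csf1r, the receptor of the monocyte lineage, were called in every library, and a call does not measure strength.

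**Figure D3:**
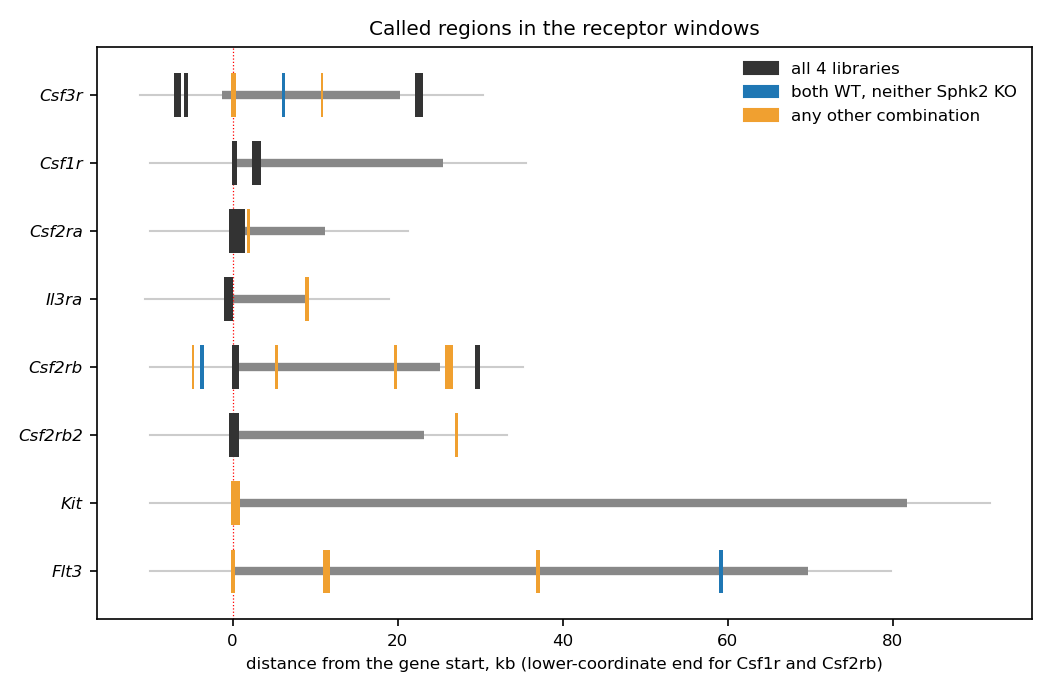
Called regions in the 8 receptor windows (rows), by distance in kb from the gene start, or from the lower-coordinate gene end for Csf1r and Csf2rb. Thick grey lines are gene bodies, thin lines the 10 kb extensions, and boxes are merged regions drawn to scale and coloured by the libraries that called them. Regions called in all 4 libraries sit near the 0 line at Csf1r, Csf2ra, Il3ra, Csf2rb and Csf2rb2, Csf3r has its own on either side of the gene, and the Flt3 WT-only region lies 59235 bp past the start.

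To compare strength free of list length, each region called in all 4 libraries was given its percentile by −log10 q among the 16973 such regions of a library, where 100 is the strongest. The median over the 10 receptor regions was 30.1 and 34.8 in Sphk2 KO and 39.6 and 29.3 in WT, or 32.5 ± 3.3 against 34.5 ± 7.3 (mean ± SD, n = 2 each). The Sphk2 KO medians lay between the WT medians, and the difference was -2.01 points (two-sided exact permutation p = 1). By fold enrichment and by pileup the sign was the opposite, at 1.57 and 2.08 points. The receptors' shared regions were thus, by their median, weaker than the middle of all shared regions in every library, with single regions ranging from 1.27 to 82.3.

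Whole windows were ordered in the same way. Ranked by its strongest window peak among the 15207 genes with a window peak in any library, Csf2ra stood highest of the receptors, at percentiles 69.3 and 62.4 in Sphk2 KO and 72.1 and 65.9 in WT. Csf3r stood at 45.3 and 47.3 in Sphk2 KO and 53.0 and 51.9 in WT, where both Sphk2 KO values lay below both WT values. Its strongest peak was not always the same region, and region 6 at Mrps15 gave it in all but WT replicate 2. How many of the 15207 genes had groups apart in this way was not counted, here or for Csf2rb and Csf2rb2. Il3ra and Csf1r followed with overlapping groups. Csf2rb stood at 29.0 and 32.6 in Sphk2 KO and 32.9 and 34.7 in WT, and Csf2rb2 at 26.3 and 24.2 in Sphk2 KO and 20.6 and 24.1 in WT, where the groups were apart by under 1 point. The strongest Csf2rb peak was region 3 in both Sphk2 KO libraries, region 7 in WT replicate 1 and region 1 in WT replicate 2. Il3ra spread widely, with 38.0 and 49.4 in Sphk2 KO and 45.1 and 42.6 in WT, and stood above Csf3r in Sphk2 KO replicate 2. Kit was lowest of the 8 in each library, tied with Flt3 where neither had a peak, at 9.26 and 17.4 in Sphk2 KO and 14.7 and 15.2 in WT.

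Of the 10 shared regions, 3 had both WT percentiles above both Sphk2 KO percentiles, or 30% against 21.3% of all shared regions, and 1 had the reverse order, or 10% against 22.1%. The largest difference was at Csf2rb region 7, with 10.0 and 22.9 in Sphk2 KO and 36.8 and 24.7 in WT (difference of means -14.3). Csf3r region 2 stood at 1.27 and 2.42 in Sphk2 KO and 11.3 and 8.82 in WT, and the region at Mrps15 at 53.8 and 57.4 in Sphk2 KO and 64.9 and 59.6 in WT. The reverse order was at Csf1r region 1, with 14.9 and 7.53 in Sphk2 KO and 5.44 and 6.24 in WT. Ordered instead by fold enrichment, the groups overlapped at Mrps15, and by pileup they overlapped at Csf2rb region 7 and Csf1r region 1. By pileup, Csf1r region 2 and Csf2ra region 2 also had both WT percentiles above both Sphk2 KO percentiles. The tally was thus 2 regions higher in WT and 1 higher in Sphk2 KO by fold enrichment, and 4 and 0 by pileup. The shares of all shared regions were counted by −log10 q only, so these tallies have no background to be read against. Of these regions, Csf3r region 2 alone had separate groups by all 3 measures. How many of all shared regions did so was not counted. In Sphk2 KO that region was near the weak end of all shared regions, at percentiles 1.27 and 2.42.

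**Figure D4:**
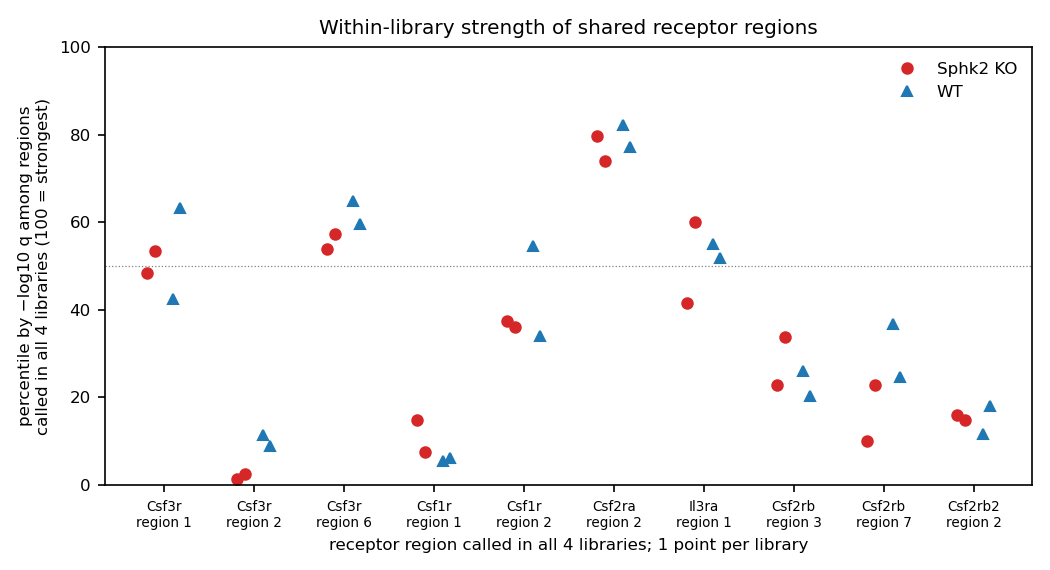
Percentile by −log10 q of the 10 receptor regions called in all 4 libraries, among all regions called in all 4 libraries (100 is the strongest). Each point is a library, red circles for Sphk2 KO and blue triangles for WT, and the dotted line marks the middle of all shared regions. The groups are separate at Csf3r regions 2 and 6, Csf1r region 1 and Csf2rb region 7 and overlap at the other 6.

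Regions called in every library were wider, and a region merged from more peaks is wider in part by construction. The 10 regions called in all 4 libraries had a median width of 957 bp, against 474.5 bp for the other 16, and the same split over all regions of the series gave medians of 961 and 309 bp. The summits of the 10 lay within a median of 80 bp of each other across libraries, and within 207 bp at most. Of the 26 regions, 17 had their mean summit inside the receptor gene and 9 outside it. By exact position, a peak covered the promoter-table start site of 2 and 3 of 6 receptors in Sphk2 KO. In WT it was 6 and 4 (exact permutation p = 0.333). Over all 32851 listed start sites the shares were 27.6% and 31.4% in Sphk2 KO and 31.7% and 32.6% in WT. The receptor counts took 1 start per gene, the first listed, and the shares took every listed start, so the 2 are not matched. Csf2ra and Csf2rb2 starts were covered in all 4 libraries. The Il3ra start was covered in WT replicate 1 alone, although its region was called everywhere. That Il3ra start lies inside the gene. The mean summit of the region lay at -728 bp from it and -145 bp from the lower-coordinate gene end. The Kit and Flt3 starts lay under a peak in the WT libraries alone, although Sphk2 KO replicate 2 had peaks in the same regions. The share of all listed starts with this pattern was not counted.

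The choice of 10 kb left few regions at the border. The farthest region inside a window was the Csf3r region 1, 4967 bp from the gene, with the values above. The nearest outside lay 12761 bp past Csf3r and had −log10 q of 12.5 and 13.9 in Sphk2 KO and 15.2 and 14.3 in WT. A WT-only region lay 18984 bp before Csf3r (3.99 and 3.43 in WT).

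Of 8 ligand genes, 2 and 4 had a gene-end peak in Sphk2 KO and 2 and 4 in WT, and all 4 libraries had one at Csf1, which encodes M-CSF, and Flt3l, the Flt3 ligand. Csf2, which encodes GM-CSF, and Csf1 had a WT-only region in their windows, at −log10 q 7.90 and 13.1 for Csf2 and 5.76 and 2.71 for Csf1. The Csf2 region lay 9945 bp from the gene, near the limit of the window, and the Csf1 region lay inside its gene. Il34, Il5 and Kitl had no peak in their windows in any library. WT-only regions were thus found at 2 of 8 ligands, against 7.89% of all protein-coding genes. A Sphk2 KO-only region was found at 0 of 8, against 1.01% of all genes.

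Signalling genes downstream of the receptors were mostly called in every library. Against 9109 of all 21883 protein-coding genes, 18 of 20 signal transduction genes had a gene-end peak in all 4 libraries. WT-only regions were found at 3 of them, namely Pik3r1, a regulatory subunit of PI3 kinase (20.5 and 17.1), Akt1, a kinase downstream of it (4.67 and 6.25), and Stat5b, which carries GM-CSF signals to the nucleus (3.61 and 14.0), with the strongest region of each given. The Stat5b region lay 9558 bp from its gene and the Akt1 region 5404 bp from its own. Lyn, a Src family kinase, had a Sphk2 KO-only region, at 4.32 and 4.91 in Sphk2 KO. The share of genes with a WT-only region was 15% here and 7.89% of all protein-coding genes, and with a Sphk2 KO-only region 5% here and 1.01% of all.

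Against the same 9109 of 21883 protein-coding genes, all 13 feedback genes had gene-end peaks in every library. Of these, Socs3, the inhibitor of G-CSF receptor signalling, had a WT-only region 7546 bp from the gene (6.04 and 11.6), and Inpp5d, a phosphoinositide phosphatase gene, had one inside (12.9 and 5.88). Among 13 related receptors, Pdgfrb, Il10ra and Pdgfra had WT-only regions (11.1 and 11.6 at Pdgfrb, a growth factor receptor gene that neighbours Csf1r). The Il10ra region lay 6044 bp from the gene. Of 12 lineage transcription factors, Irf8, a monocyte factor, had a WT-only region (17.0 and 7.55), and Runx1 had regions of both directions, at 1.80 and 2.47 in Sphk2 KO and 2.98 and 4.11 in WT. Over the receptors themselves, 3 of 8 genes had a WT-only region and 0 of 8 a Sphk2 KO-only region, against the same 7.89% and 1.01% of all genes. Gene length was not taken into account in these shares.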

How the data were processed

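Peak lists of 4 ATAC-seq libraries, 2 Sphk2 KO and 2 WT, were used. The submitters' processing notes name cutadapt, BWA, MACS2 and mm10. Per the file headers, MACS 2.1.1.20160309 called peaks in each library separately on paired-end fragments, with no control library, at a q-value of 0.05 and a local background of 10 kb. The deposited lists give pileup (a coverage signal not scaled to depth), −log10 p and q (p-value and q-value of the authors' caller) and fold enrichment, the authors' ratio of pileup to local background. These are the authors' values for each peak and were used to describe and rank within a list. A region with no call may be open below the threshold, and a shallower library gives fewer calls. Coordinates are mm10, counted from 1.

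Peaks sharing 1 bp were merged with Python 3.11.15 and pandas 2.3.3, and merging was tested on simulated peaks. A library had a region when a peak overlapped it, and the strongest peak gave its score. Gene positions came from the RefSeq table (GRCm38.p6), which holds no exons. Group differences were tested by two-sided exact permutation over 4 libraries. The members and lists were chosen with earlier results of these data known. All 8 receptors were named, with genes their regions overlap, up to 4 genes per list and direction with a genotype-specific region, and the 3 genes most like Csf3r. The same replicate number marks no shared source in the labels.

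Start-site coverage, the values without the Mrps15 region and the check of replicate pairing were added after the data had been seen.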

Additional observations from a re-analysis of the deposited data

How the results depend on the processing

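With 2 libraries per genotype no test could pass 0.05, and depth ran with genotype, so these data cannot show whether the receptor calls differ beyond the libraries. The peak-number difference (-5.5) kept its sign under all settings but 1: with lists of equal length it was 0.5, and the base-pair difference was then 478 and, without Sphk2 KO replicate 1, 34. A cutoff of 5 on −log10 q brought the peak-number difference to -2. The windows then held 11 and 16 peaks in Sphk2 KO and 15 and 16 in WT, so the groups overlapped. Leave-one-out values ran from -8 to -3 peaks and from -4979 to 34 bp. The percentile difference (-2.01) changed sign by fold enrichment (1.57), by pileup (2.08) and with 25 kb extensions (0.574), and ran from -12.5 to 3.39 when 1 library was left out, so its sign depended on these choices. WT-only regions numbered 2 to 4 under every other setting and 3 to 6 when 1 library was left out. Leaving out Sphk2 KO replicate 2 gave 6, adding the Kit region and both other Flt3 regions called in it. Leaving out WT replicate 1 also gave 6. The Csf3r region was WT-only in every setting and the Csf2rb region in every setting but gene bodies alone, which leave it out. Sphk2 KO-only regions numbered 1 with lists of equal length and 0 to 1 with 1 library left out. Regions called in every library numbered 6 with gene bodies alone, 17 with 25 kb extensions and 10 to 13 with 1 library left out. Pairing libraries by replicate number, as a replicate block, gave -5.5 peaks, -2472.5 bp and -2.01 points, with exact sign-flip p of 0.5, 0.5 and 1, where 0.5 is the smallest possible. The pairs differed by -6 and -5 peaks. Same-numbered libraries did not deviate together (correlation 0.012 over 16973 shared regions). Without the region at Mrps15, a setting added after seeing the data, the peak-number difference was -5.5.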
